A study of Mus musculus with 12 samples.

Results

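Cytosolic ribosomal protein genes encode the proteins of the ribosome that translates nuclear mRNAs. Probe sets were taken where the platform annotation gave a single gene symbol beginning with Rpl or Rps and a number, together with Rplp0, Rplp2 and Rpsa. The S6 kinase genes (Rps6k, 4 symbols) and 1 pseudogene symbol were left out. This gave 48 of the 12393 genes measured, on 100 of 20380 probe sets with 1 symbol. Of the 48, 42 encode core proteins (20 of the large subunit, 2 of its stalk and 20 of the small subunit) and 6 are paralogues of core genes, namely Rpl3l, Rpl7l1, Rpl22l1, Rpl39l, Rps4l and Rps27l. A further 102 probe sets list a ribosomal protein gene among several symbols, and 30 ribosomal protein genes appear only there. They were counted as probe sets and not named.

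The study hybridised 12 RNA samples to Affymetrix mouse expression arrays. The 5 cultures were primary keratinocytes, the epithelial cells of the epidermis, taken from newborn mice; each pooled cells of 5 mice and was kept for at most 3 days, without passage, in medium low in calcium. Cultures 1 and 2 came from mice of mixed C57, DBA and FVB background and cultures 3, 4 and 5 from FVB mice. The 5 samples of skin at 30 days of age were all of the mixed background, and the 2 samples of newborn skin were both FVB, so strain and age coincide within skin. No transgene, deletion or drug is given for any group. The labels leave unsaid whether each skin sample is a different animal. The p-values therefore reflect the spread among these particular samples, and that spread may be technical.

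Each ribosome joins a large and a small subunit, and most core proteins are needed in every cell that makes protein. In vertebrates the mRNAs of these proteins begin with a run of pyrimidines through which the kinase mTOR adjusts their translation to nutrients and growth signals, so mRNA level and protein output can part. A few paralogues are made chiefly in certain tissues. In mouse, mutations of Rps19 and Rps20 that act through keratinocytes darken the skin.

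Core genes are known to share a run of pyrimidines at the start of the mRNA. Start regions are shown for 4 paralogues the results turn on and for the parents of Rpl39l and Rps27l. Those of Rpl4 and Rpl7a, core genes with long runs of C or T near the annotated start, are also shown. They come from RefSeq (GRCm38.p6) and run from 40 bases before the annotated start to 20 bases after it, 5′ to 3′ on the transcribed strand. Capitals mark the longest run of C or T of at least 7 bases that was found within 20 bases of the start, for the first start listed where a gene has several. The paralogue Rpl39l lies at chr16:10170188-10170247 on the plus strand and its parent Rpl39 at chrX:37085203-37085262 on the minus strand. Rps27l lies at chr9:66946046-66946105 (plus) and Rps27 at chr3:90213629-90213688 (minus). Rpl22l1 is at chr3:28805468-28805527 (plus), Rpl3l at chr17:24727786-24727845 (plus), Rpl4 at chr9:64173347-64173406 (plus) and Rpl7a at chr2:26910767-26910826 (plus).
Rpl39l: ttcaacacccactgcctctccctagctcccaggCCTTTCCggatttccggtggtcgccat
Rpl39: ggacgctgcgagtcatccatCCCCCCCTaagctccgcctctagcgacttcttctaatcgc
Rps27l: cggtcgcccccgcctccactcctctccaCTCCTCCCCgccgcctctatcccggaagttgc
Rps27: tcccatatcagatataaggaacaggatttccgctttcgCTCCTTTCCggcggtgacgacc
Rpl22l1: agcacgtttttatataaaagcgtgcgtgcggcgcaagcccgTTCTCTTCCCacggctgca
Rpl3l: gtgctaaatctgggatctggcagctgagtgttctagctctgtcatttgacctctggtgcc
Rpl4: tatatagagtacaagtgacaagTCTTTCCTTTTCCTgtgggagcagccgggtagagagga
Rpl7a: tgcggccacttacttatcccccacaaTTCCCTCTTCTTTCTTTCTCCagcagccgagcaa
The tracts are 7 bases in Rpl39l and 8 in Rpl39, 9 in Rps27l and 9 in Rps27, 10 in Rpl22l1, 14 in Rpl4 and 21 in Rpl7a. The Rpl39 stretch is cut where the searched window begins, and the base before it is also a pyrimidine. None was found in Rpl3l. The marked stretches of Rpl4, Rpl39, Rps27l and Rpl39l lie wholly before the annotated start, and so outside the annotated mRNA. Those of Rps27 and Rpl7a span the start, and that of Rpl22l1 lies after it. A tract counted here may lie on either side of the start and need not begin the mRNA. Start regions were matched for 37 core genes and 5 paralogues. A tract was present in 22 of the 37 core genes (59.5%) and 3 of the 5 paralogues, against 24.2% of all 27025 genes with a start region. The letters CCGGAAG, searched on both strands of the 300 bases from 250 before to 50 after the start, were present in 19 of 37 core genes (51.4%) and 2 of 5 paralogues, against 9.12% of all genes. In 0 of the 22 core genes with a tract did it overlap CCGGAAG. A match is a description of these letters, and the absence of one says only that they are not in the window.

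Values are RMA signals on a log2 scale, where a difference of 1 is a doubling. A signal depends on the probes as well as on the RNA, so no member's level was set against another's. Core genes lay near the top of the signal range. Their median over the 12 arrays was 12.26 (range 5.3 to 13.01), against a median of 6.35 for all genes, and the highest value on any array was 13.59. Of the 42 core genes, 31 had a mean of 11 or above, and these 31 are called bright below. Of the other 11, 8 lay below 9, and these were Rpl12, Rpl14, Rpl27a, Rpl37, Rpl39, Rps6, Rps25 and Rps27. For a probe set signal alone, weak probes and a low amount of RNA cannot be told apart. The spread between arrays of a group was small for bright genes, with a median residual SD of 0.092 against 0.17 for all genes, and signals this close to the top of the range may be compressed, which was not tested.

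Array medians of the 31 bright genes were 12.44, 12.47, 12.46, 12.42 and 12.48 in cultures 1 to 5, and 12.31, 12.44, 12.37, 12.35 and 12.31 in 30-day skin. They were 12.54 and 12.52 in newborn skin. All 12 medians thus lay between 12.31 and 12.54. In 30-day skin, replicate 1 had unusual control probe sets, with an actin 3′ signal 1.74 above the 5′ one against 0.67 to 0.82 in the rest of its group, and it was the lowest array of its group for 10 of the 31 bright genes. The actin gap also moved with the groups compared. It was 0.21 to 0.74 in culture, 0.67 to 1.74 in 30-day skin and 0.99 and 1.14 in newborn skin, and within culture 0.21 and 0.35 in mixed-strain against 0.56 to 0.74 in FVB cultures. The part of RNA quality in the culture, age and strain differences was not tested. Replicate 4 was the lowest for 9 and replicate 3 for 7, and values without replicate 1 are given where a call rests on it. The cultures held keratinocyte markers (array means of 7 measured genes 9.84 to 10.63, against 10.23 to 10.48 in 30-day and 10.92 to 10.96 in newborn skin), but these went opposite ways. Col17a1 and Krt14, genes of the basal layer, were higher in culture (2.43 and 0.95 against newborn skin, 1.82 and 1.36 against 30-day skin), and Krt10 and Krt1, genes of the differentiating layers, lower (-4.77 and -4.18 in the first comparison, -3.56 and -1.53 in the second). Their hair markers averaged 4.91 to 4.96, against 12.05 to 12.58 in 30-day skin and 10.97 to 10.98 in newborn skin, and fibroblast markers 5.56 to 6.21, against 11.01 to 11.56 and 11.49 to 11.59. Hair and fibroblast markers were thus lower in every culture than in every skin sample, and the part of cell makeup in the results was not tested. In such bulk samples fewer cells of a type and less RNA per cell cannot be told apart.

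The first question was whether the ribosomal protein genes differ between cultured keratinocytes and skin. The bright core genes differed little, and the paralogues and a few dim core genes differed most. Against newborn skin, 5 of 48 genes were higher in culture and 5 lower at an adjusted p under 0.05 (limma, Benjamini-Hochberg over all 12393 genes), while 17.9% of all genes were higher and 18.6% lower. As a share, 20.8% of the members were called against 36.5% of all genes. Against 30-day skin, 14 genes passed as higher and 5 as lower, while 26.5% of all genes were higher and 21.9% lower, and the called shares were 39.6% of the members against 48.3% of all genes. Both comparisons use the same 5 cultures. Every culture lay above both newborn samples for 11 members and below both for 13, against 24.0% and 23.7% of all genes. Every culture lay above all 30-day samples for 12 members and below all for 4, against 19.9% and 16.8%. Of the paralogues, 5 of 6 were called against newborn skin and 6 of 6 against 30-day skin. Without either newborn array, 1 member passed as lower against newborn skin, and without culture 1, 3 passed as lower against 30-day skin. Arrays of a group lay in 5 close pairs, and averaging the pairs left 3 members higher and 1 lower in the comparison with newborn skin and 7 higher and 2 lower in that with 30-day skin.

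**Figure D1:**
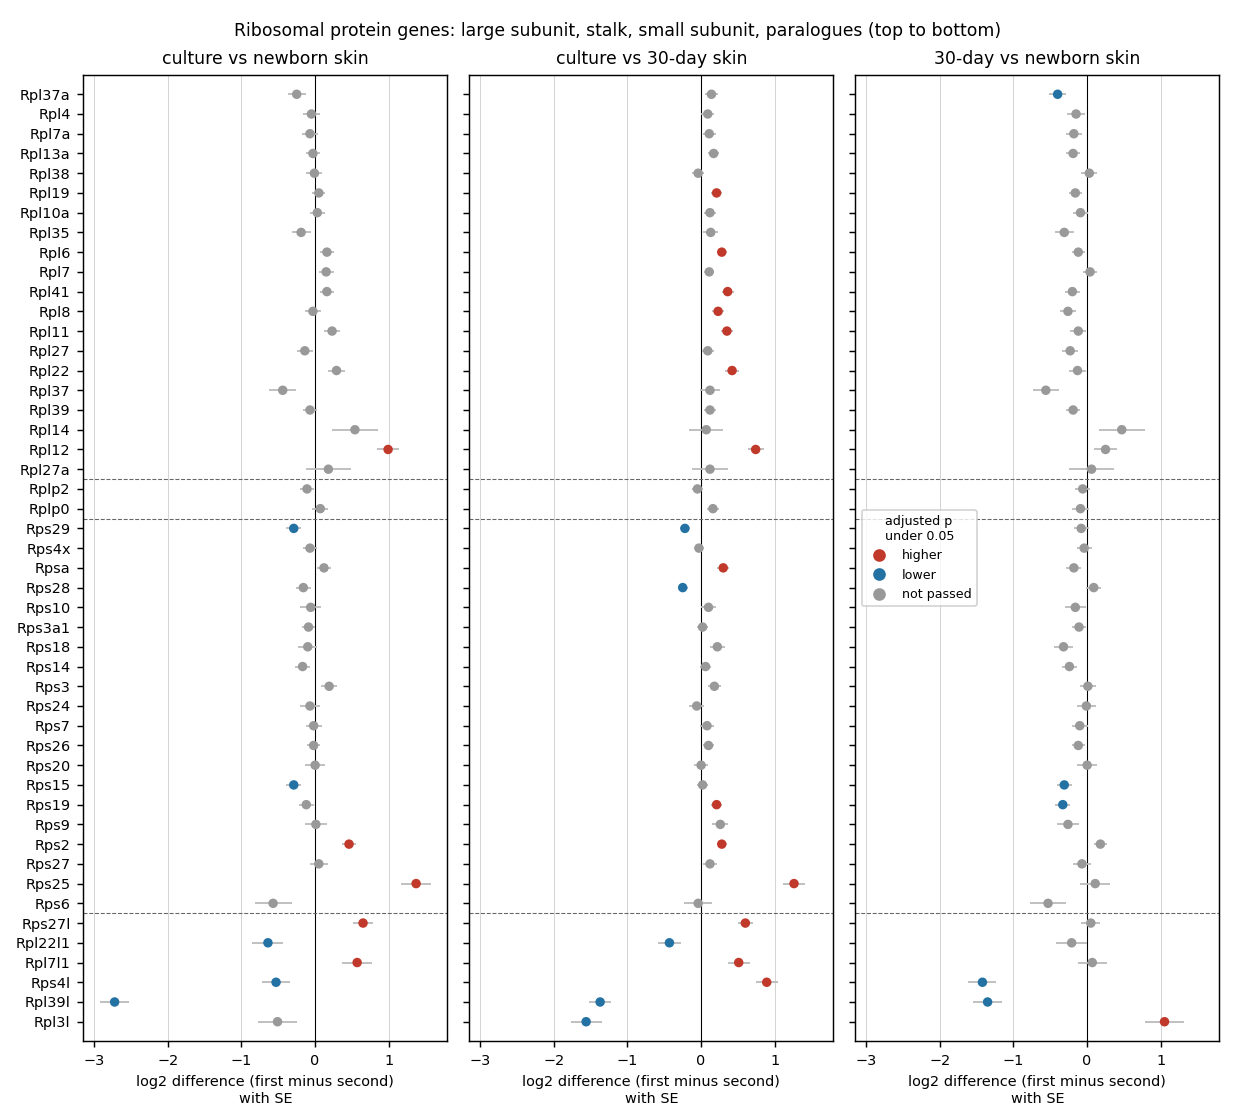
Log2 difference (first group minus second) with its standard error for each of the 48 ribosomal protein genes in 3 comparisons, ordered by class and, within a class, by mean signal. Red and blue points passed an adjusted p of 0.05; most core genes lie within 0.5 of 0, and Rpl39l, Rpl3l, Rps4l, Rps25 and Rpl12 lie farther out.

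In all of the 31 bright genes the brightest probe set, which stands for the gene, differed by under 0.5 in every comparison made. Against newborn skin 0 of the 31 were higher in culture and 2 lower (limma, also 0 and 2 at an unadjusted p under 0.05), with differences from -0.29 to 0.23. Against 30-day skin 7 were higher and 2 lower, with differences from -0.25 to 0.36. Other genes that were as bright, at 11 or above in both groups, ranged more widely. Of 63 such genes, 15 differed by 0.5 or more between culture and newborn skin, with a range of -1.1 to 1.23. Of 56 such genes, 17 differed that much between culture and 30-day skin, with a range of -1.19 to 1.36. In either direction, 30 of the 63 (47.6%) and 31 of the 56 (55.4%) were called in these comparisons. These counts describe the measured genes, and no test set the groups of genes against each other.

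Dimmer probe sets of the bright genes did not always stay within 0.5. Of 44 such probe sets, 2 were called with a difference of 0.5 or more against newborn skin (in Rpl13a and Rps9). Against 30-day skin 4 were (2 in Rpl13a, and in Rpl37a and Rps24), with age 1 and with strain 2 (all in Rps9). The share of all probe sets that pass both cuts was not counted. The probe sets called in Rps24 and, against newborn skin, in Rps9 were dim, with means of 4.89 and 5.29. Rpl13a, known for a role outside the ribosome in silencing inflammatory mRNAs, had dimmer probe sets called with such a difference in both comparisons of culture with skin. One of its probe sets read 9.71, 9.85, 9.9, 9.95 and 9.79 in culture, against 9.09, 9.4, 9.01, 9.2 and 9.37 in 30-day skin and 9.02 and 8.85 in newborn skin. Its cultures lay above all skin samples, by 0.90 ± 0.12 against newborn skin and 0.63 ± 0.09 against 30-day skin (limma adjusted p 6.05e-05 and 8.28e-05 over 22626 probe sets). Of the 4 Rpl13a probe sets 3 were called higher than in 30-day skin, and the brightest missed (0.17 ± 0.07, adjusted p 0.075), so the gene counts as not called.

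The sign of so small a difference depended on how the arrays were scaled. As deposited, the median member differed by -0.03 between culture and newborn skin and by 0.12 between culture and 30-day skin, while the median of all genes differed by 0.01 and 0.02. With cyclic loess applied to the deposited values the medians of the members were -0.146 and -0.111. With each array centred on its median gene they were 0.15 and 0.269, and the median of all genes then moved to 0.19 and 0.166. With arrays centred on the proteasome genes they were -0.441 and -0.485, and the median of all genes moved to -0.4 and -0.588. Calls against 30-day skin were accordingly 14 higher and 5 lower as deposited, 4 and 11 under loess, 31 and 2 under median centring and 1 and 40 under proteasome centring. Against newborn skin they were 5 and 5 as deposited, 4 and 11 under loess, 12 and 1 under median centring and 2 and 34 under proteasome centring. For the 42 core genes alone the median in culture minus newborn skin was -0.024 as deposited, -0.137 under loess, 0.153 under median centring and -0.438 under proteasome centring. In culture minus 30-day skin it was 0.12, -0.111, 0.269 and -0.485 under the same scalings. In neither comparison did the sign hold under all 4 scalings.

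**Figure D2:**
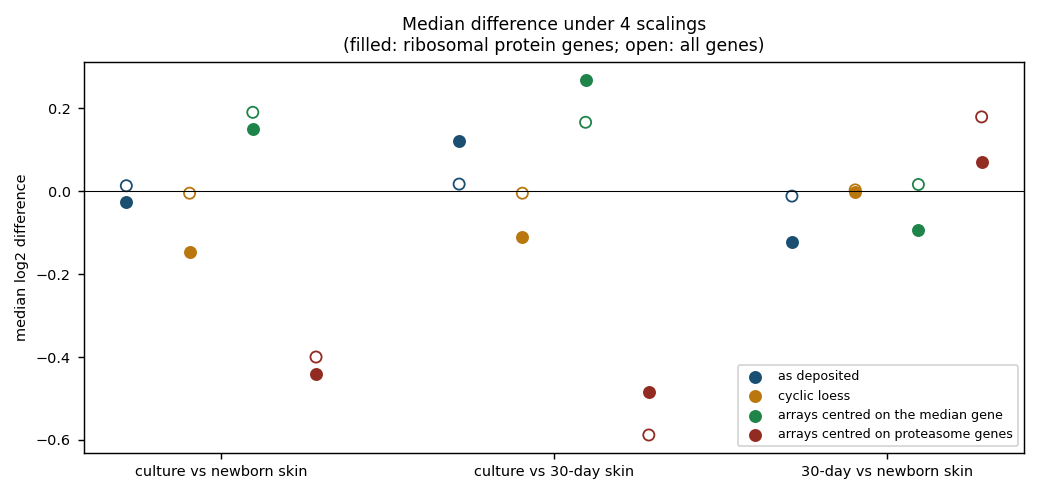
Median log2 difference of the 48 ribosomal protein genes (filled circles) and of all 12393 genes (open circles) in 3 comparisons, under the deposited scaling and 3 alternatives. The filled circles for culture against 30-day skin run from 0.269 under median centring to -0.485 under proteasome centring and so change side of 0.

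Among the 20 large subunit genes, 1 passed as higher in culture than in newborn skin and 0 as lower, and against 30-day skin 7 passed as higher and 0 as lower, beside 17.9% and 18.6%, and 26.5% and 21.9%, of all genes (limma, at an unadjusted p under 0.05 these counts were 2 and 1, and 8 and 0). Rpl12, a protein at the base of the stalk that binds translation factors, was the 1 gene higher in both comparisons. Its single dim probe set read 5.64, 5.76, 6.14, 6.11 and 6.13 in cultures 1 to 5, against 5.28, 5.08, 5.08, 5.24 and 5.38 in 30-day skin and 5.04 and 4.89 in newborn skin. Every culture lay above every skin sample. The difference was 0.99 ± 0.15 (SE) against newborn skin (limma adjusted p 9.92e-05) and 0.74 ± 0.11 against 30-day skin (6.71e-05). The second was lost under proteasome centring (0.13, adjusted p 0.303).

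Rpl11, which with another large subunit protein can bind the p53 inhibitor Mdm2, read 11.64, 11.65, 11.79, 11.74 and 11.82 in culture, against 11.29, 11.53, 11.47, 11.19 and 11.42 in 30-day skin and 11.43 and 11.56 in newborn skin. The cultures did not overlap either skin group, but only the difference from 30-day skin passed the test (0.35 ± 0.08, adjusted p 0.00296, n = 5 arrays in each group, limma). Rpl41, which encodes a very short basic peptide, read 12.08 to 12.32 in culture against 11.75 to 11.94 in 30-day skin (0.36 ± 0.08). None of its dimmer probe sets was called against 30-day skin (0.15, 0.29 and 0.25, limma adjusted p 0.225, 0.209 and 0.157 over 22626 probe sets). Rpl6, Rpl8 and Rpl19 were higher than in 30-day skin by 0.28, 0.23 and 0.21, and for each the ranges did not overlap. Rpl8 did not pass without replicate 1 of 30-day skin (0.19, adjusted p 0.0762), nor without replicate 4 of 30-day skin or without culture 1, 2 or 5. Under proteasome centring Rpl11, Rpl41, Rpl6, Rpl8 and Rpl19 changed sign, to between -0.39 and -0.25. Under loess none of the 5 passed, with Rpl41 at 0.12, Rpl11 at 0.10, Rpl6 at 0.05 and Rpl8 and Rpl19 at -0.02.

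Rpl22, whose product binds RNA and which mice can live without, had probe sets that went opposite ways. The brighter one, used for the gene, read 9.79, 9.66, 9.88, 9.85 and 10.03 in culture, against 9.47, 9.44, 9.58, 9.25 and 9.36 in 30-day skin and 9.51 and 9.59 in newborn skin. It was 0.42 ± 0.09 higher in culture than in 30-day skin (limma adjusted p 0.00103), but 0.14 under loess and -0.18 under proteasome centring, where it did not pass. The other, an _s_at probe set whose probes match more than one transcript, read 6.91, 7.16, 7.39, 7.54 and 7.5 in culture, against 8.22, 8.27, 8.13, 7.72 and 7.96 in 30-day skin and 8.3 and 8.34 in newborn skin. It was lower in culture, with a difference of -0.76 ± 0.13 from 30-day skin and -1.02 ± 0.18 from newborn skin (limma adjusted p 0.000354 and 0.000491 over 22626 probe sets). The gene's direction between culture and skin thus depended on the probe set, and the mean of its probe sets gave -0.17 against 30-day skin. Of 23 members with several probe sets, Rpl22 was the 1 with opposite calls against 30-day skin, and Rpl37a the 1 with opposite calls against newborn skin (-0.29 and 0.29 in its _x_at probe sets). Counted singly, 11 of the 100 member probe sets passed as higher and 7 as lower against newborn skin, beside 17.6% and 14.7% of all probe sets, and 25 passed as higher and 9 as lower against 30-day skin, beside 25.1% and 18.2%. Of the 102 probe sets with several symbols, 4 were higher and 6 lower, and 22 higher and 1 lower, in the same comparisons.

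The stalk genes Rplp0 and Rplp2, whose products recruit elongation factors, did not pass in any comparison, adjusted or unadjusted. Rplp0, often used as a reference transcript, read 12.91, 12.85, 12.8, 12.76 and 12.7 in culture, against 12.51, 12.82, 12.74, 12.57 and 12.56 in 30-day skin and 12.72 and 12.76 in newborn skin. The ranges overlapped, and the differences were 0.07 ± 0.11 against newborn skin and 0.16 ± 0.08 against 30-day skin. Rplp2 differed by -0.11 ± 0.10 and -0.05 ± 0.07.

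Among the 20 small subunit genes, 2 passed as higher in culture than in newborn skin and 2 as lower, and against 30-day skin 4 passed as higher and 2 as lower, beside the same shares of all genes. The widest difference was that of Rps25, which certain viral RNAs need for initiation without a cap. Rps25 is among the 8 core genes below 9, and its single probe set read 8.15, 8.27, 8.37, 8.55 and 8.14 in culture. It read 7.57, 7.05, 6.66, 6.76 and 7.13 in 30-day skin and 7.02 and 6.83 in newborn skin. No skin sample reached the lowest culture, and the difference was 1.37 ± 0.20 against newborn skin (2.58-fold, limma adjusted p 6.32e-05) and 1.26 ± 0.15 against 30-day skin (2.39-fold, 5.92e-06). The calls for Rps25 held in all 24 alternatives run for each comparison, the 3 scalings included. Having 1 probe set, Rps25 kept the same values in the alternatives that change the choice of probe sets. With strain matched, Rps25 differed by 1.43 between FVB cultures and newborn skin and by 1.17 between mixed-strain cultures and 30-day skin.

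Rps2, a protein near the site where mRNA enters the ribosome, read 10, 9.92, 9.98, 10 and 9.94 in culture. In 30-day skin it read 9.61, 9.74, 9.72, 9.72 and 9.67, and in newborn skin 9.45 and 9.56. The cultures lay above all skin samples, by 0.46 ± 0.09 against newborn skin (limma adjusted p 0.000854) and 0.28 ± 0.07 against 30-day skin (0.00313). The difference from 30-day skin changed sign under loess (-0.01) and under proteasome centring (-0.32). Rpsa, also known as the precursor of a laminin receptor, read 12.71 to 12.85 in culture against 12.4 to 12.61 in 30-day skin and was 0.30 ± 0.08 higher as deposited, but 0.08 under loess (not called) and -0.31 under proteasome centring. Rps19, whose human counterpart is mutated in Diamond-Blackfan anaemia, was 0.21 ± 0.08 higher than in 30-day skin (adjusted p 0.0413, limma), with overlapping ranges. It missed the threshold when most single arrays were left out, replicate 1 of 30-day skin among them (0.17, adjusted p 0.0893), and was -0.04 under loess and -0.40 under proteasome centring.

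Lower values in culture were seen for Rps29, Rps28 and Rps15. Rps29, a small zinc-binding protein, read 12.74, 12.83, 12.94, 12.94 and 12.88 in culture, against 13.15, 13.05, 13.05, 13.09 and 13.07 in 30-day skin and 13.22 and 13.1 in newborn skin. All cultures were below all skin samples, and the difference was -0.29 ± 0.10 from newborn skin (limma adjusted p 0.0248) and -0.22 ± 0.07 from 30-day skin (0.0214). Without culture 1 these were -0.26 and -0.18 and did not pass. Without newborn replicate 1 or 2 the difference from newborn skin was -0.24 or -0.35 and did not pass either. Rps28 was lower than in 30-day skin (-0.25 ± 0.07, 12.41 to 12.58 in culture against 12.63 to 12.83), and Rps15 lower than in newborn skin (-0.29 ± 0.10, 11.93 to 12.1 in culture against 12.24 and 12.39). With arrays centred on the median gene none of these calls held, at -0.12 and -0.07 for Rps29, -0.10 for Rps28 and -0.11 for Rps15. Rps15 did not pass without culture 1 (-0.27) or without newborn replicate 1 (-0.37) or 2 (-0.21). Rps6, the target of the S6 kinases, was measured by dim probe sets and missed the threshold against newborn skin (-0.57 ± 0.25, limma adjusted p 0.0952).

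The members called in none of the 4 comparisons were all core genes. Their differences ran from -0.57 to 0.54 between culture and newborn skin and from -0.06 to 0.26 between culture and 30-day skin. Rps20, mutated in a dark-skinned mouse strain, differed by 0.00 from each skin group, with 11.91 to 12.29 in culture, 11.88 to 12.27 in 30-day skin and 12.05 to 12.12 in newborn skin. Rpl38, which mouse embryos need for translation of Hox mRNAs, differed by -0.01 from newborn and -0.04 from 30-day skin. Its level was 12.31 to 12.68 in culture, 12.5 to 12.61 in 30-day skin and 12.47 to 12.6 in newborn skin. Rps3, which is also known as a DNA repair factor, differed by 0.19 and 0.18, and Rps24, like Rps19 a gene of human Diamond-Blackfan anaemia, by -0.07 and -0.06. These genes did not pass at this number of arrays, which does not show that their levels were equal.

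Rpl39l differed more than any other member between culture and newborn skin. It is a paralogue of Rpl39 known in mouse for its part in sperm formation. Its probe set read 5.47, 5.45, 5.23, 5.02 and 5.25 in cultures 1 to 5. It read 6.8, 6.99, 6.94, 6.27 and 6.25 in 30-day skin, and 8.03 and 7.98 in newborn skin. The 3 groups did not overlap, with culture lowest and newborn skin highest. Rpl39l averaged 5.28 ± 0.19 in culture (SD, n = 5), against 6.65 ± 0.36 in 30-day skin (n = 5) and 8.0 ± 0.04 in newborn skin (n = 2). It was 6.59-fold lower in culture than in newborn skin (-2.72 ± 0.20, limma adjusted p 6.43e-08) and 2.58-fold lower than in 30-day skin (-1.37 ± 0.15, 3.16e-06). Both calls held in all 24 alternatives, and with strain matched the differences were -2.84 and -1.19. Its parent Rpl39 read 7.48 to 7.77 in culture, 7.4 to 7.57 in 30-day skin and 7.65 to 7.69 in newborn skin, with differences of -0.07 ± 0.10 against newborn and 0.12 ± 0.08 against 30-day skin that did not pass.

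Rpl3l, the paralogue of Rpl3 that skeletal muscle and heart make, read 5.13, 4.94, 4.73, 4.49 and 5.13 in culture. It read 6.82, 6.72, 6.92, 5.88 and 5.9 in 30-day skin and 5.33 and 5.46 in newborn skin. Replicates 4 and 5 of 30-day skin were below replicates 1 to 3, and still above all other arrays. Rpl3l was 2.96-fold lower in culture than in 30-day skin (-1.56 ± 0.21, limma adjusted p 1.81e-05). Against newborn skin it differed by -0.51 ± 0.27 and did not pass (adjusted p 0.174), although the arrays did not overlap. Skeletal muscle markers moved with it. The mean of 14 such markers was 4.95 to 5.17 in culture, against 10.8, 10.92, 10.85, 10.12 and 10.17 in replicates 1 to 5 of 30-day skin and 8.92 and 9.01 in newborn skin. Of the 14, 14 were lower in culture than in 30-day skin and 12 lower than in newborn skin, and their part in the Rpl3l result was not tested.

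Rps4l, a gene named for its likeness to the small subunit gene Rps4, lay between the skin groups in culture. It read 8.16, 8.0, 8.17, 7.72 and 7.74 in culture, against 7.14, 6.68, 6.8, 7.25 and 7.46 in 30-day skin and 8.41 and 8.56 in newborn skin. None of the 3 groups overlapped. It was 0.89 ± 0.15 higher in culture than in 30-day skin (limma adjusted p 0.000131) and lower than in newborn skin (-0.53 ± 0.19, 0.0452). The first call held in 23 of 24 alternatives, the exception being proteasome centring (0.29, adjusted p 0.0938), and the second in 15 of 24. Without newborn replicate 1 or 2 the second was -0.60 (adjusted p 0.12) or -0.46 (0.253), and it was also lost without culture 2, 4 or 5, at -0.54, -0.47 and -0.48. The X-linked core gene Rps4x read 12.55 to 12.76 in culture, 12.67 to 12.79 in 30-day skin and 12.74 to 12.77 in newborn skin and was not called in any comparison.

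**Figure D3:**
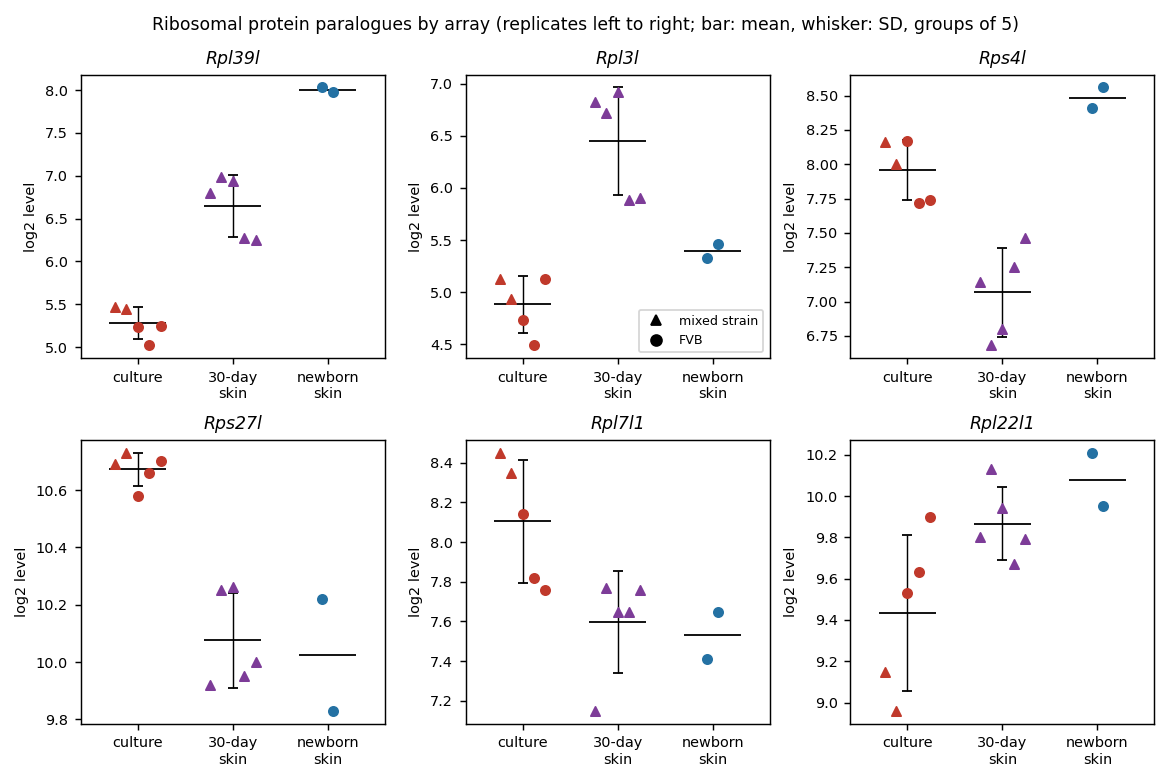
Log2 level of the 6 ribosomal protein paralogues on each of the 12 arrays, by group, with triangles for mixed-strain and circles for FVB samples; bars are group means and whiskers the SD of groups of 5. Rpl39l averages 5.28 in culture, 6.65 in 30-day skin and 8.0 in newborn skin, Rps4l is lowest in 30-day skin, and Rps27l lies at 10.58 to 10.73 in culture, above all skin samples.

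Rps27l, a paralogue of Rps27 and a known target of p53, was higher in culture. It read 10.69, 10.73, 10.58, 10.66 and 10.7 in culture, against 9.92, 10.25, 10.26, 9.95 and 10 in 30-day skin and 10.22 and 9.83 in newborn skin. All cultures lay above all skin samples. The difference was 0.65 ± 0.13 against newborn skin (limma adjusted p 0.00107) and 0.60 ± 0.10 against 30-day skin (0.000139). Each call was lost in 1 of 24 alternatives, the proteasome centring, where the differences were 0.24 and -0.01. Rps27 differed by 0.05 ± 0.12 and 0.12 ± 0.09 and was not called.

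Rpl7l1, a paralogue of Rpl7, read 8.45, 8.35, 8.14, 7.82 and 7.76 in culture, against 7.15, 7.77, 7.65, 7.65 and 7.76 in 30-day skin and 7.41 and 7.65 in newborn skin. Culture 5 lay just below the highest 30-day sample and all cultures above newborn skin, and the differences were 0.51 ± 0.15 against 30-day skin and 0.57 ± 0.20 against newborn skin (limma adjusted p 0.0121 and 0.0369). The difference from newborn skin did not pass without culture 1, 2 or 3 (0.49, 0.51 and 0.56) or newborn replicate 1 or 2 (0.45 and 0.69). Under loess neither passed (0.29 against 30-day and 0.45 against newborn skin), nor under proteasome centring (-0.10 and 0.16). Rpl22l1, whose level the Rpl22 protein is known to hold down in mouse, read 9.15, 8.96, 9.53, 9.63 and 9.9 in culture, against 9.8, 10.13, 9.94, 9.67 and 9.79 in 30-day skin and 10.21 and 9.95 in newborn skin. The 2 mixed-strain cultures were the lowest arrays. Rpl22l1 was lower in culture, with a difference of -0.64 ± 0.21 from newborn skin and -0.43 ± 0.16 from 30-day skin (limma adjusted p 0.0244 and 0.0345). The first did not pass without newborn replicate 1 or 2 (-0.51 and -0.77). The second did not pass without culture 1 or 2 (-0.36 and -0.31) or replicate 2 or 3 of 30-day skin (-0.36 and -0.41). Each call held under 2 of the 3 other scalings. FVB cultures averaged 9.69 and newborn skin, also FVB, 10.08. Mixed-strain cultures averaged 9.06 and 30-day skin, also mixed-strain, 9.86.

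The difference between paralogue and parent within an array has an arbitrary zero, and its change between groups does not depend on how arrays are centred. It could be followed for 4 of 7 listed pairs. Between culture and 30-day skin it changed by -1.49 for Rpl39l and Rpl39, by -0.85 for Rpl22l1 and Rpl22, by 0.48 for Rps27l and Rps27 and by 0.40 for Rpl7l1 and Rpl7. In all 4 pairs the groups did not overlap, and each exact two-sided permutation test gave p 0.00794, the smallest that 5 against 5 arrays allow (0.0317 after Benjamini-Hochberg adjustment over 16 tests). For Rpl22l1 and Rpl22 the value rests on the brighter of the opposed Rpl22 probe sets. For Rpl7l1 and Rpl7 it rests on the brighter Rpl7l1 probe set, and the other was not called. Against newborn skin the changes were -2.65, -0.93, 0.60 and 0.43 in the same order of pairs, again without overlap, and 5 against 2 arrays cannot give an exact p below 0.0952.

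The next question was whether the genes differ between skin of the ages sampled. Here 1 of 48 members was higher in 30-day than in newborn skin and 5 were lower, while 5.91% of all genes were higher and 9.84% lower. Without either newborn array 0 members were higher and 2 lower. Leaving out cultures 1, 2 or 3, or replicates 1, 3, 4 or 5 of 30-day skin, left 3 lower. The median member differed by -0.12 and the median gene by -0.01. Under loess, median centring and proteasome centring the median member differed by -0.001, -0.094 and 0.07. The calls were 2 higher and 2 lower, 1 and 2, and 2 and 2. Of all genes, 863 were higher and 1005 lower, 806 and 1096, and 1510 and 530 under the same scalings. For 18 members all 30-day arrays lay below both newborn arrays and for 3 all lay above, against 20.5% and 15.1% of all genes. Of the 100 member probe sets, 2 were higher and 5 lower, against 4.75% and 7.36% of all probe sets. Since all 30-day samples were mixed-strain and both newborn samples FVB, age and strain cannot be told apart here.

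Rpl39l and Rps4l were the members whose age calls held most widely. Rpl39l was 2.55-fold lower in 30-day than in newborn skin (-1.35 ± 0.20, limma adjusted p 0.000373), and Rps4l 2.68-fold lower (-1.42 ± 0.19, 0.000179), and both calls held in all 24 alternatives. Marker lists moved with age too, since 7 of 8 proliferation markers and 5 of 7 endothelial markers were lower and 8 of 8 hair markers higher in 30-day than in newborn skin, and their part in these calls was not tested. With strain as a covariate, its effect estimated from the cultures, they were -1.65 and -1.62. Rpl3l was the 1 member higher at 30 days (1.05 ± 0.27, 2.08-fold, adjusted p 0.0175), and 7 of the 14 skeletal muscle markers were higher with it. It did not pass with the strain covariate (0.81, adjusted p 0.24) or without newborn replicate 1 or 2 (0.99 and 1.12, adjusted p 0.142 and 0.113).

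The core genes called lower at 30 days were Rpl37a, Rps19 and Rps15. Rpl37a read 12.53, 12.89, 12.84, 12.93 and 12.93 in 30-day skin, against 13.21 and 13.24 in newborn skin, a difference of -0.40 ± 0.12 (limma adjusted p 0.0359). Rps19 read 11.7, 11.89, 11.97, 11.75 and 11.84, against 12.16 and 12.16 in newborn skin (-0.33 ± 0.10, 0.0451). Rps15 read 12.01, 12.06, 12.03, 11.86 and 12.04, against 12.24 and 12.39 in newborn skin (-0.31 ± 0.10, 0.0456). No 30-day array reached a newborn array in any of them. None of these 3 calls held under any of the other 3 scalings (Rpl37a -0.37 to -0.20, Rps19 -0.30 to -0.14, Rps15 -0.28 to -0.12) or with the strain covariate (-0.53, -0.44 and -0.24). Single arrays ended them too. Rpl37a was lost without newborn replicate 1 or 2 (-0.41 and -0.38) or replicate 3 of 30-day skin (-0.40), Rps15 without any of 11 single arrays (-0.39 to -0.23), and Rps19 without any of 10 (-0.34 to -0.30), replicate 1 of 30-day skin and both newborn arrays among them. Rpl37 missed the threshold narrowly (-0.56 ± 0.18, adjusted p 0.0522).

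Within culture, strain could be compared at 1 age. Of the 48 members, 0 were higher in mixed-strain than in FVB cultures and 2 lower (limma, adjusted p under 0.05, 2 and 4 at an unadjusted one), while 3.18% of all genes were higher and 6.66% lower. Under loess, median centring and proteasome centring the calls were 1 higher and 3 lower, 0 and 2, and 1 and 0. Of all genes, 553 were higher and 614 lower, 383 and 841, and 416 and 364 under the same scalings. The strains did not overlap for 14 members that were higher and 14 that were lower in mixed-strain cultures, against 20.4% and 25.4% of all genes. Of the 100 member probe sets, 2 were higher and 3 lower, against 3.91% and 5.3% of all probe sets. Cell markers differed between the strains as well, and their part was not tested. Of 7 fibroblast markers 3 were higher in mixed-strain cultures (Col1a2 1.36, Col3a1 0.92 and Pdgfra 0.52), and of 7 keratinocyte markers 3 were lower (Krt1 -2.29, Krt10 -1.17 and Trp63 -0.70). The 2 ribosomal protein genes called lower were Rpl22l1 and Rpl12. Without culture 1 or 2 neither passed, while without culture 3, 4 or 5 1 gene passed. Rpl22l1 read 9.15 and 8.96 in mixed-strain cultures, against 9.53, 9.63 and 9.9 in FVB cultures (-0.63 ± 0.15, adjusted p 0.0165). Rpl12 read 5.64 and 5.76, against 6.14, 6.11 and 6.13 (-0.43 ± 0.12, 0.0326). Strains did not overlap for either gene. Rpl12 missed the threshold without any 1 of the 5 cultures (-0.49 to -0.37), and Rpl22l1 without culture 1 or 2 (-0.72 and -0.53). Rpl14 showed the widest difference that did not pass (0.70 ± 0.28, adjusted p 0.128), at 7.6 and 7.53 in mixed-strain against 6.95, 6.89 and 6.75 in FVB cultures.

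One probe set annotated to Rps9, whose counterpart in yeast helps keep decoding accurate, divided the arrays by strain rather than by tissue. It was picked out after its values were seen. This _x_at probe set read 9.41 and 9.32 in mixed-strain cultures and 10.29, 9.36, 9.2, 8.43 and 8.43 in 30-day skin, all mixed-strain. It read 7.0, 7.09 and 6.61 in FVB cultures and 6.62 and 6.46 in newborn skin, all FVB. A gap of 1.34 separated the 7 mixed-strain from the 5 FVB arrays, and 7 of 22626 probe sets (0.0309%) had a gap at least as wide. Within culture the difference was 2.46 ± 0.41 (limma adjusted p 0.00253 over 22626 probe sets).

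The other Rps9 probe sets did not divide in this way. The brightest, which stands for the gene, read 11.68 and 11.82 in mixed-strain and 11.76, 11.69 and 11.65 in FVB cultures, and the dimmest was lower in mixed-strain cultures (-0.66 ± 0.16, limma adjusted p 0.0202). An _x_at probe set holds probes that can bind related transcripts, so the signal may not come from Rps9, and a sequence difference between strains under the probes was not tested. Over all 100 member probe sets, 2 were higher and 6 lower in all mixed-strain arrays than in all FVB arrays, against 1.32% and 2.23% of all probe sets. The lower ones belonged to Rpl35 (3 probe sets), Rpl13a, Rpl27 and Rpl39, with gaps of 0.03 to 0.09.

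**Figure D4:**
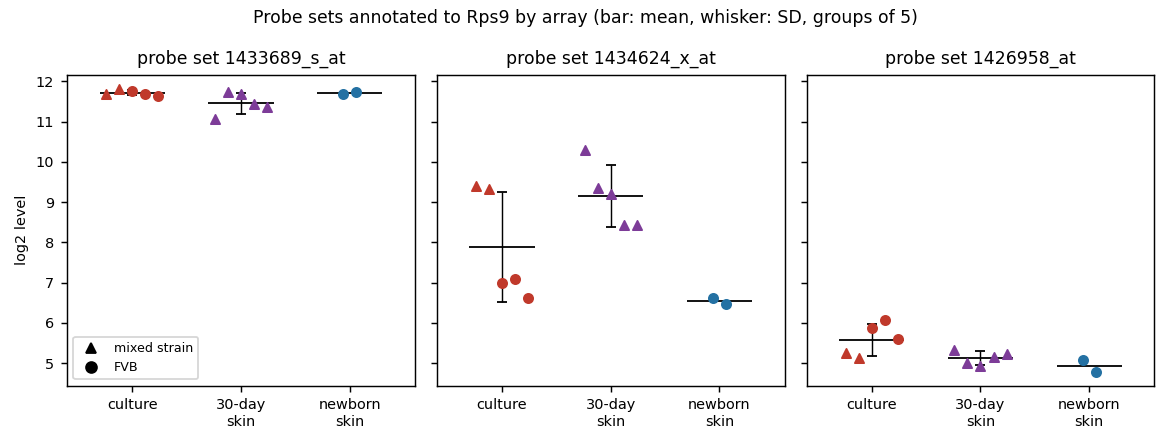
Log2 level of the 3 probe sets annotated to Rps9 on each of the 12 arrays, with triangles for mixed-strain and circles for FVB samples, bars for group means and whiskers for the SD of groups of 5. In the middle panel, the _x_at probe set, all triangles lie at 8.43 or above and all circles at 7.09 or below, whereas triangles and circles mix within the brightest probe set.

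Genes that build and use ribosomes were described by lists of textbook members, whose counts are descriptions. Of all genes, 17.9% were higher and 18.6% lower in culture than in newborn skin, 26.5% and 21.9% than in 30-day skin, 5.91% and 9.84% with age and 3.18% and 6.66% with strain, and the counts that follow are to be read beside these shares. Of 86 measured ribosome biogenesis genes, 58 were higher in culture than in newborn skin and 1 lower (median 0.61), and 70 were higher than in 30-day skin and 2 lower (median 0.76). Ddx21, a helicase of the nucleolus, was higher by 1.76 and 1.37, Riok2, a kinase that matures the small subunit, by 1.43 and 1.57, and Rsl1d1, a nucleolar protein, by 1.40 and 1.35. Proliferation markers averaged 8.26 to 8.89 in culture, against 8.02 to 8.38 in 30-day and 9.04 to 9.1 in newborn skin. They went opposite ways, with Mki67 and Top2a lower than in newborn skin (-1.76 and -0.88) and Rrm2 higher (0.56). Against 30-day skin 6 were higher and 1, Mki67, lower (-1.23). The part of these markers in the results was not tested. Between ages 1 of the 86 was higher and 1 lower, and 23 were lower in mixed-strain than in FVB cultures and 1 higher, led by Nop58 and Nop56, core proteins of the particles that methylate ribosomal RNA (-1.12 and -1.0). Of 8 proliferation markers, 6 were also lower in mixed-strain cultures.

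Of the 74 mitochondrial ribosomal protein genes, whose products translate mitochondrial mRNAs, 19 were higher in culture than in newborn skin and 6 lower (median 0.17), and 50 were higher than in 30-day skin and 0 lower (median 0.47). In 30-day skin 19 were lower than in newborn skin and 0 higher (median -0.28). Within culture 13 were lower in mixed-strain than in FVB cultures and 1 higher (median -0.26). Age and strain cannot be told apart in skin. Of 32 genes of the constitutive proteasome, the main protein-degrading complex, 17 were higher in culture than in newborn skin and 31 higher than in 30-day skin, with 0 lower in either, also at an unadjusted p under 0.05 (limma, medians 0.42 and 0.59). Medians of the 42 core ribosomal proteins were -0.02 and 0.12 on the same scale. Centring arrays on the proteasome genes removes their shift by construction and places the core genes below 0.

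**Figure D5:**
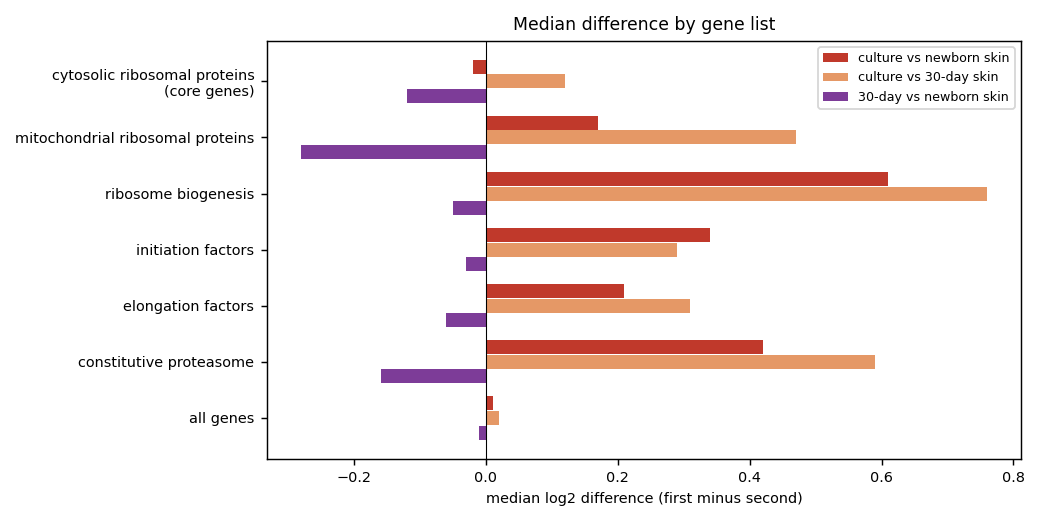
Median log2 difference (first group minus second) of the core cytosolic ribosomal protein genes, 5 related gene lists and all 12393 genes in 3 comparisons, as deposited. Ribosome biogenesis reaches 0.61 and 0.76 in culture against newborn and 30-day skin, while the core genes stand at -0.02 and 0.12.

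Of 29 initiation factor genes, 13 were higher in culture than in newborn skin and 0 lower, and 14 were higher than in 30-day skin and 1 lower. Eif6, which keeps free large subunits apart from small ones, was higher by 1.01 and 1.40, and Eif1a, which helps scan for the start codon, by 0.99 and 1.56. Of 11 elongation and termination factor genes, 5 were higher and 1 lower, and 6 higher and 0 lower, in the same 2 comparisons. Eef1e1, a scaffold protein of the tRNA synthetase complex, led both (1.47 and 1.25). Of 11 other genes whose mRNAs are known to begin with a pyrimidine tract, 4 were higher and 1 lower against newborn skin, and 8 higher and 2 lower against 30-day skin. They included Npm1, a nucleolar chaperone (0.87 and 0.94), and the mesenchymal filament gene Vim, which was lower (-3.45 and -1.89) beside the fibroblast markers given above.

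The share called among 20 genes that carry growth signals to ribosome synthesis was near that of all genes against newborn skin (36.5%), since 4 were higher and 3 lower in culture than in newborn skin, and against 30-day skin 7 passed as higher and 5 as lower. The MYC family genes, transcription factors that drive ribosome production, went opposite ways. Myc was higher (1.98 and 1.66), and Mycn (-2.29 and -2.25) and Mycl (-2.13 and -2.60) were lower. Ddit4, an inhibitor of mTOR signalling, was higher by 1.90 and 1.25. Fau, which encodes a small subunit protein fused to a ubiquitin-like one and lacks an Rps symbol, differed by 0.00 ± 0.13 against newborn skin and was 0.25 ± 0.09 higher than in 30-day skin (limma adjusted p 0.0384).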

How the data were processed

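RNA of 12 samples was hybridised to Affymetrix mouse arrays. The authors deposited log2 values. RMA is named per the submitters' processing notes, a method of background correction, quantile normalisation and probe summary, with no version or setting given in the sources used here. The deposited values ran from 2.89 to 13.59, with array medians of 5.86 to 6.01. No counts or detection calls accompany them, and precision is set by how many arrays each group has. Quantile normalisation assumes similar distributions in all samples, while markers of several cell types differed between culture and skin.

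Of 22690 probe sets, 64 controls were left out. The platform annotation gave 1 symbol for 20380, several for 691 and none for 1555. Each gene was represented by its probe set with the highest mean. Groups came from the sample titles. R 4.3.3 with limma 3.58.1 gave two-sided moderated tests (lmFit, then eBayes) in 1 fit over 12 arrays, with Benjamini-Hochberg adjustment over 12393 genes and a threshold of 0.05. Strain within culture came from a fit with separate means for the strains, and single probe sets from a fit over 22626. Related ribosomal protein genes and their processed pseudogenes can share probes, which makes values of single members uncertain.

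The members and gene lists were chosen with earlier results of these data known. Named genes were, per comparison, the 5 largest calls in each direction, the 2 largest that missed, and a list of well-known ribosomal protein genes. Rpl6, Rpl8, Rpl19, Rps20, the 8 core genes of low signal, those whose probe sets separated strains, and the Rps9 probe sets were named after their values were seen. Listed genes outside the members were limited to the 4 largest calls and 1 miss per list. Alternatives covered cyclic loess, centring on the median gene or proteasome genes, leaving out the dimmest 40% of genes, the choice of probe sets, the variance model, array weights, strain, the replicate number as a block, a threshold of 0.01, each array left out, and close arrays averaged, the last added after seeing the data. Rps25, Rpl39l and Rps4l have 1 probe set each, so the choice of probe sets left their values unchanged. The fit was tested on simulated arrays. Permutation tests, drawings and bookkeeping used Python 3.11.15, scipy 1.17.1, pandas 2.3.3, numpy 2.4.6 and matplotlib 3.10.9.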

Additional observations from a re-analysis of the deposited data

Results flagged for a closer look

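In 4 of 68 groups of 5 arrays examined for named members, 1 array lay far from the others. Chance alone gives about 1 such group in 20, so 4 of 68 is near what chance gives. All 4 were in 30-day skin. Rpl19 read 12.26 in replicate 1, against 12.39 to 12.44 in the others. Rpl37a read 12.53 in replicate 1, against 12.84 to 12.93. Rpl7l1 read 7.15 in replicate 1, against 7.65 to 7.77. Rps15 read 11.86 in replicate 4, against 12.01 to 12.06. Replicate 1 is also the array whose actin 3′ to 5′ gap (1.74) and 18S rRNA signal (8.40) stood apart, and the part of RNA quality in these values was not tested.

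Rps4l differed in opposite directions between culture and each skin group, at -0.53 against newborn skin and 0.89 against 30-day skin. The difference between these values was tested as that between the skin groups, -1.42 (limma adjusted p 0.000179).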

How the results depend on the processing

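Counts of ribosomal protein genes called are given as higher and lower. As deposited they were 5 and 5 for culture against newborn skin, 14 and 5 for culture against 30-day skin, 1 and 5 for 30-day against newborn skin, and 0 and 2 for mixed-strain against FVB culture. In that order, they were 4 and 11, 4 and 11, 2 and 2, and 1 and 3 under cyclic loess; 12 and 1, 31 and 2, 1 and 2, and 0 and 2 with arrays centred on the median gene; and 2 and 34, 1 and 40, 2 and 2, and 1 and 0 with arrays centred on proteasome genes. Averaging close arrays, added after seeing the data, left newborn skin and mixed-strain culture with 1 sample each, assumed to vary like the other groups, and gave 3 and 1, 7 and 2, 0 and 2, and 0 and 0. At an adjusted p of 0.01 they were 4 and 1, 10 and 3, 0 and 2, and 0 and 0. Replicate numbers did not pair the samples: deviations of same-numbered samples correlated at -0.28 to 0.23 (median -0.09, 9 pairs), and the replicate block gave 5 and 2, 12 and 3, 2 and 2, and 1 and 0. Leaving out the dimmest 40% of genes gave 0 higher with age and 1 lower with strain. The mean of all probe sets gave 2 higher with age and 1 with strain, array weights 1 lower with strain, and probe sets without _x_at and _s_at 3 lower than in 30-day skin. Strain-matched cultures gave 3 lower against newborn skin, and the strain covariate 2 lower with age. Leaving out 1 array gave 4 to 5 higher and 1 to 7 lower against newborn skin, the lowest without either newborn array, and 12 to 16 higher and 3 to 5 lower against 30-day skin, the lowest without culture 1. With age it gave 0 to 1 higher and 2 to 5 lower, the lowest without either newborn array, and with strain 0 to 1 higher and 0 to 3 lower, the lowest without culture 1 or 2. The cause of these changes was not tested beyond what each alternative removes by construction. Counts of all genes moved with the scaling too, with 769 higher and 9334 lower than in 30-day skin under proteasome centring. Of 1066 alternative values of 45 gene results, 858 kept their side of the threshold and direction and 18 changed sign, all of them for culture against 30-day skin. Under proteasome centring these were Rpsa (-0.31), Rpl19 (-0.39), Rpl6 (-0.32), Rpl41 (-0.25), Rps19 (-0.40), Rpl8 (-0.38), Rpl11 (-0.25), Rps27l (-0.01), Rps2 (-0.32), Rpl22 (-0.18), Rpl7l1 (-0.10), Rps9 (-0.34) and Rps18 (-0.38). Under loess they were Rpl19 (-0.02), Rps19 (-0.04), Rpl8 (-0.02) and Rps2 (-0.01), and with the mean of probe sets Rpl22 (-0.17). Calls held in every alternative for 3 of 10 genes against newborn skin, 3 of 19 against 30-day skin, 2 of 6 with age and 0 of 2 with strain.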
